A study of Mus musculus with 12 samples.

Results

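The zinc finger genes described here carry the mouse symbol Zfp followed by a number, and were chosen by their level, a mean over all 12 libraries of at least 2 FPKM. FPKM counts sequenced fragments relative to the length of the transcript and to a scale factor of the library. That rule kept 128 of 333 Zfp genes, in a table of 24255 genes. The rule used the mean level, so the level itself is a description. The differences between groups were not used as such, but the mean includes the MUT and GCKO libraries, and 13 genes with a mean under 2 FPKM in WT were kept through the higher values of other groups. The choice is therefore not independent of rises among these 13 genes. Falls have the same limit where a gene low in MUT was kept through other groups, as was Zfp677 at 0.545 to 1.22 FPKM in MUT. Genes of that kind were not counted. The study asked how the oocyte transcriptome changes when Dpagt1, the enzyme that starts the assembly of the sugar chain for protein N-glycosylation, is impaired.

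Each library was made from 20 oocytes at the germinal vesicle stage, collected 46 h after priming with PMSG from females of the strain C57BL/6 that were 3 weeks old. The 4 groups had 3 libraries each. WT oocytes came from wild-type females, with label numbers 4 to 6. MUT oocytes came from females with the missense change D166G in Dpagt1, which is present in every cell of the animal, with label numbers 1 to 3. GCKO oocytes came from Dpagt1F/F Gdf9CRE/+ females, in which Cre is driven by an oocyte promoter, with label numbers 1 to 3. AmckO oocytes came from Dpagt1F/F Amhr2CRE/+ females, in which Cre is driven in granulosa cells, with label numbers 4 to 6. By that design the AmckO oocyte is meant to keep its own Dpagt1, which the labels do not state. The labels give WT neither the floxed allele nor a Cre, so an effect of these cannot be told apart from the deletion in GCKO and AmckO. The labels also number MUT and GCKO alike and WT and AmckO alike, and whatever the numbers stand for cannot be told apart from the loss of Dpagt1 in the oocyte. The labels do not say whether the 3 libraries of a group came from separate animals, so that the p-values measure the spread between libraries.

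Most proteins of this family bind DNA through C2H2 fingers, short loops held by a zinc ion between a pair of cysteines and a pair of histidines. A large branch also carries a KRAB domain, through which the protein recruits TRIM28 (also known as KAP1), and with it SETDB1 and heterochromatin proteins, to silence the sites it binds. KRAB zinc finger proteins silence retrotransposons and, in the case of ZFP57, protect the DNA methylation of imprinted regions that is laid down in the growing oocyte. Members without a KRAB domain include transcription factors, repressors, and proteins that bind RNA or ribosomes.

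By the annotated coding sequence, 78 of the 128 genes encoded a KRAB A box and 50 did not. Of the 50, 39 had at least 2 C2H2 fingers and no SCAN domain, and 2 had such fingers with a SCAN domain (Zfp191 and Zfp449). The rest were 8 genes with fewer than 2 C2H2 fingers and Zfp939, which the annotation gives no coding sequence. The KRAB genes had a median of 12 fingers and the others a median of 5. In the coding sequence annotated for Zfp781 a KRAB box but no finger was found. To show the domain that separates the classes, the stretch of coding sequence for the KRAB A box is given for the 6 KRAB genes that fell most in MUT oocytes and have an unbroken match of the box within 1 exon. Capitals mark the codons of a glutamate and tryptophan and, downstream, of leucine, tyrosine, valine and methionine, residues that are conserved in the box. The sequences were taken from GENCODE M21 transcripts on GRCm38 (mm10), each 99 nt long, 5′ to 3′ on the coding strand.
Zfp534, chr4:147678227-147678325, reverse strand: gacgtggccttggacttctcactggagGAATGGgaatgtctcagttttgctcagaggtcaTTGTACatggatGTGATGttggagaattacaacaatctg
Zfp600, chr4:146193325-146193423, forward strand: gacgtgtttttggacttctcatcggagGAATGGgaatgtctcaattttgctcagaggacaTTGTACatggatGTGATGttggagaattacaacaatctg
Zfp781, chr10:81906477-81906575, reverse strand: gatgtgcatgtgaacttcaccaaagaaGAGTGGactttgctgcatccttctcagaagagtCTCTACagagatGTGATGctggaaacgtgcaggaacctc
Zfp433, chr10:81718937-81719035, forward strand: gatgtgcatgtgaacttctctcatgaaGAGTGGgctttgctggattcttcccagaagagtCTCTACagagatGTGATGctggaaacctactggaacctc
Zfp938, chr10:82227809-82227907, reverse strand: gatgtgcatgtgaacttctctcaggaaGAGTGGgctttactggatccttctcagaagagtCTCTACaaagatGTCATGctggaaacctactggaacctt
Zfp345, chr2:150474766-150474864, reverse strand: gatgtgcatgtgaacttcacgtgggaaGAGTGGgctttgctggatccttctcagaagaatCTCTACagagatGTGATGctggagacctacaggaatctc

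The boxes of Zfp534 and Zfp600, which lie on chromosome 4, were identical at 92 of 99 nt. The boxes of Zfp433 and Zfp938 on chromosome 10 were also identical at 92 of 99 nt, and that of Zfp345 on chromosome 2 matched Zfp433 at 88 of 99 nt. Between Zfp534 and Zfp781 only 58 of 99 nt were the same. For contrast with the KRAB box, the first C2H2 finger is shown of Zfp57, the most abundant KRAB gene, and of Zfp513, the gene without a KRAB box that rose most in MUT oocytes. Capitals mark the codons of the cysteines and histidines that hold the zinc.
Zfp57, chr17:37009679-37009741, forward strand: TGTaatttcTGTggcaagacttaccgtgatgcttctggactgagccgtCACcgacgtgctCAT
Zfp513, chr5:31200518-31200580, reverse strand: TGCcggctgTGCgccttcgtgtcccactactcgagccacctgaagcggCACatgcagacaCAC

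Summed over all genes, FPKM differed by group, from 1167362 to 1226005 in WT libraries and from 883256 to 1107925 in AmckO libraries. The sums were lower in MUT (589617 to 611597) and in GCKO oocytes (482314 to 684212). The median ratio, taken over genes above 0 in every library, differed little, with factors of 0.988 to 1.009 per library. The deposited values were thus already matched by that measure, and scaling to the same FPKM sum undoes the match. Depth is not given with FPKM values, but the smallest steps between low values show what 1 fragment was worth. Relative to MUT replicate 2, 1 fragment was worth 2.30 to 2.68 times as much FPKM in a WT library. This factor was at most 1.21 in MUT and at most 1.49 in GCKO and AmckO libraries, so that low values are least precise in WT. All 15 oocyte markers were above 0 in every library. The 15 granulosa cell markers summed to at most 31.6 FPKM in a library, with Amh, Amhr2, Foxl2 and Lhcgr at 0 in every library, whereas the oocyte markers summed to between 6840 and 12610 FPKM. Of the granulosa markers, 5 were at 0 in each MUT library, 7 to 9 in GCKO, 9 or 10 in AmckO, and 11 or 12 in WT libraries. The part of these low values in the results was not tested. The targeted gene does not check the labels, because Dpagt1 was listed at 0 in all WT and AmckO libraries and at 0.408 to 0.985 FPKM in MUT. In GCKO oocytes it was listed at 0, 0.366 and 0 FPKM.

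The levels spanned from 2.03 to 1216 FPKM, per transcript length, with a median of 7.78 FPKM over the 128 genes. Only 7 genes reached a mean of 100 FPKM, 58 reached 10 FPKM and 50 lay under 5 FPKM. Values above 0 were listed in all 12 libraries for 119 genes. The 3 genes just inside the rule were Zfp74 (2.12 FPKM), Zfp235 (2.06 FPKM) and Zfp677 (2.03 FPKM), and the 3 just outside were Zfp568 (1.97 FPKM), Zfp956 (1.96 FPKM) and Zfp605 (1.93 FPKM).

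Zfp57, the KRAB zinc finger gene known for the upkeep of imprints, was by far the most abundant member. It was measured at 1550.2, 1711 and 1145 FPKM in WT, at 999, 1300.4 and 960.1 FPKM in MUT, at 672, 1207 and 1047 FPKM in GCKO, and at 1642, 1045 and 1318 FPKM in AmckO oocytes. The groups overlapped, and no difference was called. The log2 difference from WT was -0.43 ± 0.24 (SE, n = 3 against 3) in MUT and -0.61 ± 0.24 in GCKO, with limma adjusted p = 0.226 and 0.085. Zfp655, a C2H2 gene without a KRAB box, came next in level and was measured at 415, 374 and 316 FPKM in WT, 294, 268 and 275 FPKM in MUT, 223, 279 and 266 FPKM in GCKO and 340.3, 296 and 339 FPKM in AmckO oocytes. Both mutant groups lay under WT and under AmckO, and its log2 difference from WT was called in GCKO (-0.52 ± 0.15, limma adjusted p = 0.0221) but not in MUT (-0.39 ± 0.15, limma adjusted p = 0.0743). The GCKO difference changed sign with quantile normalization, with the abundance trend removed and with libraries scaled to the same sum.

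**Figure D1:**
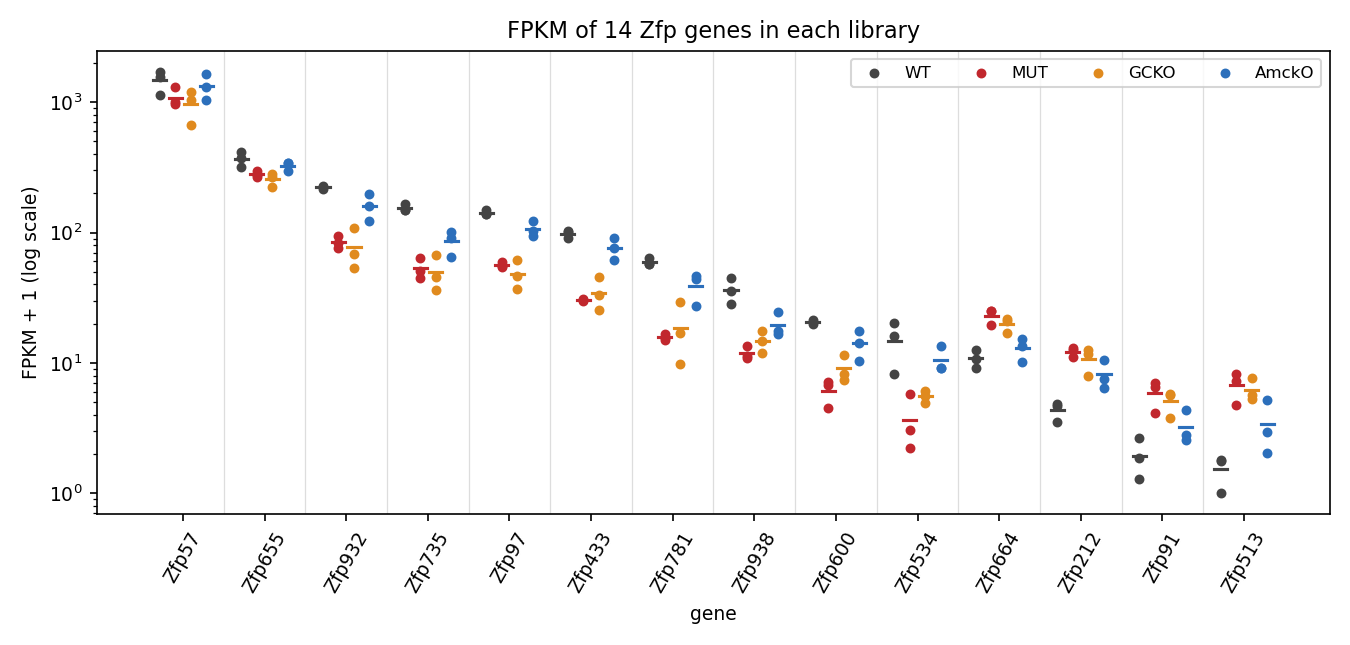
FPKM + 1 on a log axis for 14 Zfp genes in each of the 12 libraries (points, 3 per group, with the group mean as a bar). The 3 MUT values lie under the 3 WT values for Zfp932, Zfp735, Zfp97, Zfp433, Zfp781, Zfp938, Zfp600 and Zfp534 and above them for Zfp664, Zfp212, Zfp91 and Zfp513. For Zfp433, Zfp781, Zfp938, Zfp600, Zfp534, Zfp212, Zfp91 and Zfp513 this was a condition for naming them.

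In MUT oocytes, more zinc finger genes with a KRAB box fell than rose in the values as deposited, whereas those without a KRAB box more often rose, and with all libraries brought to the same FPKM sum 7 KRAB genes fell and 25 rose. Of the 128 genes, 30 fell and 15 rose at a limma adjusted p under 0.05. Among all 11233 genes tested, 11.3% were called lower and 9.46% higher, and among the 6786 genes with a mean of at least 2 FPKM, 18.2% were called lower and 12.5% higher. The 30 lower genes were 23.4% of the members and the 15 higher genes 11.7%, which is above the share of lower genes and near the share of higher genes at that level. Among the 78 KRAB genes 28 fell (35.9%) and 3 rose, and among the 50 genes without a KRAB box 2 fell and 12 rose. Of these 12 rises, 4 were of genes with a WT mean under 2 FPKM, kept through other groups, and are no independent support. Among the 44 genes without a KRAB box and with a WT mean of at least 2 FPKM, 8 rose. The median log2 difference was -0.40 for KRAB genes, 0.38 for the others and 0.12 for all genes tested. All 3 MUT values lay under all 3 WT values for 34 of the 78 KRAB genes and for 7 of the 50 others, against 16.9% of all genes tested and 26.0% of genes with a mean of at least 2 FPKM. No test of the classes against each other was made.

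Because abundant transcripts were called lower more often than rare ones throughout the table, the classes were also compared within bands of level. At a mean of 50 FPKM or more, 12 of 13 KRAB genes fell, against 794 of 1362 genes of any kind. Between 10 and 50 FPKM, 10 of 25 KRAB genes fell and none rose, against 321 of 2059 genes lower and 318 higher. Genes without a KRAB box in that band gave 0 lower and 3 higher of 16. Under 10 FPKM, 6 of 40 KRAB genes fell and 3 rose, against 121 lower and 470 higher of all 3365 genes there. Of 30 genes without a KRAB box in that band, 1 fell and 8 rose. These rises include Zfp513, Zfp598, Zfp91 and Zfp652 without a KRAB box and the KRAB gene Zfp334, all kept through groups other than WT. The median log2 difference of KRAB genes lay under that of all genes of the band both from 10 FPKM upward (-1.03 against -0.30) and below 10 FPKM (0.10 against 0.35).

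**Figure D2:**
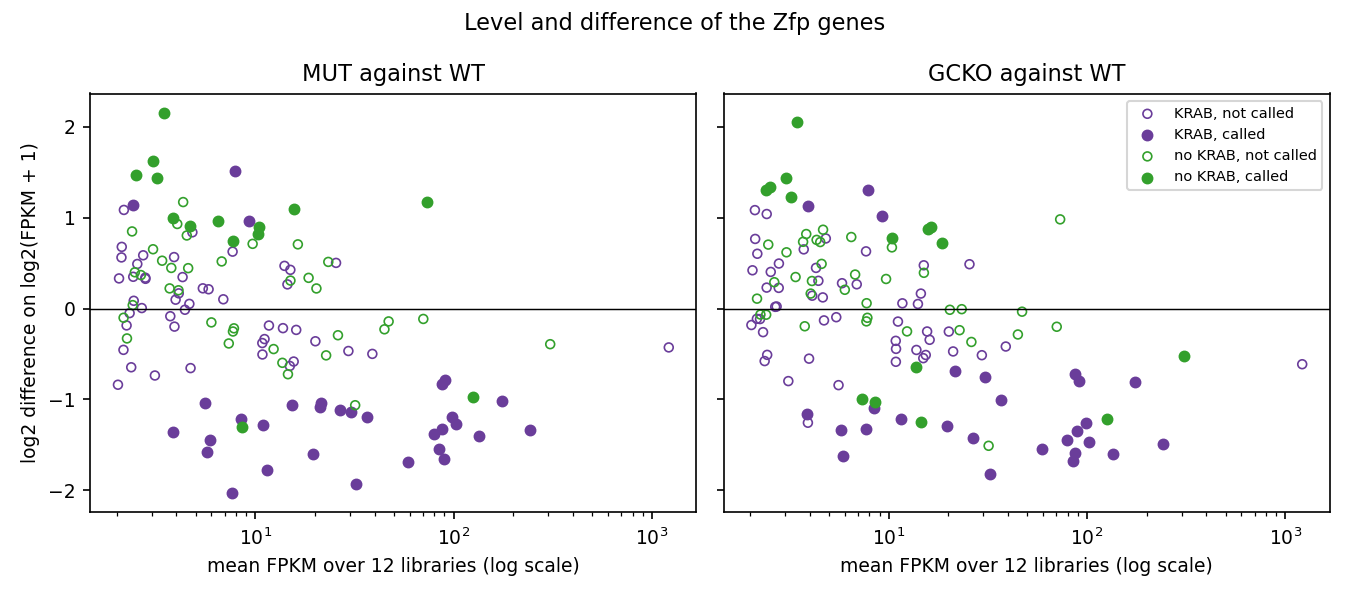
Log2 difference from WT on the log2(FPKM + 1) scale (y axis) against the mean FPKM over 12 libraries (log x axis) for MUT and for GCKO oocytes, with each point a Zfp gene, purple with and green without a KRAB box, filled where called. Of 13 KRAB genes at 50 FPKM or more, 12 were called lower in each comparison.

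The direction of the called genes depended on how the libraries were scaled. With the libraries brought to the same FPKM sum, the median of all genes tested moved from 0.12 to 0.71, and the 30 lower and 15 higher genes became 7 lower and 58 higher. All 7 that remained lower encoded a KRAB box, namely Zfp345, Zfp433, Zfp534, Zfp600, Zfp735, Zfp781 and Zfp938. Quantile normalization gave 26 lower and 5 higher, and removal of the abundance trend 28 lower and 5 higher. The gap between the classes moved less, with the median of KRAB genes 0.64 to 0.79 log2 units under that of the others in all 5 scalings. Scalings by a single factor per library (median of ratios and same sum) shift both classes alike, apart from the pseudocount, and can hardly change this gap. The gap includes the 13 genes with a WT mean under 2 FPKM and was not computed without them. The KRAB median lay 0.64 under the others after quantile normalization and 0.66 under them with the abundance trend removed. Relative to the median of all genes tested, the KRAB genes lay lower by 0.52 as deposited, 0.38 after quantile normalization, 0.43 with the abundance trend removed and 0.23 at the same sum. The genes without a KRAB box lay higher than that median by 0.23 to 0.49.

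**Figure D3:**
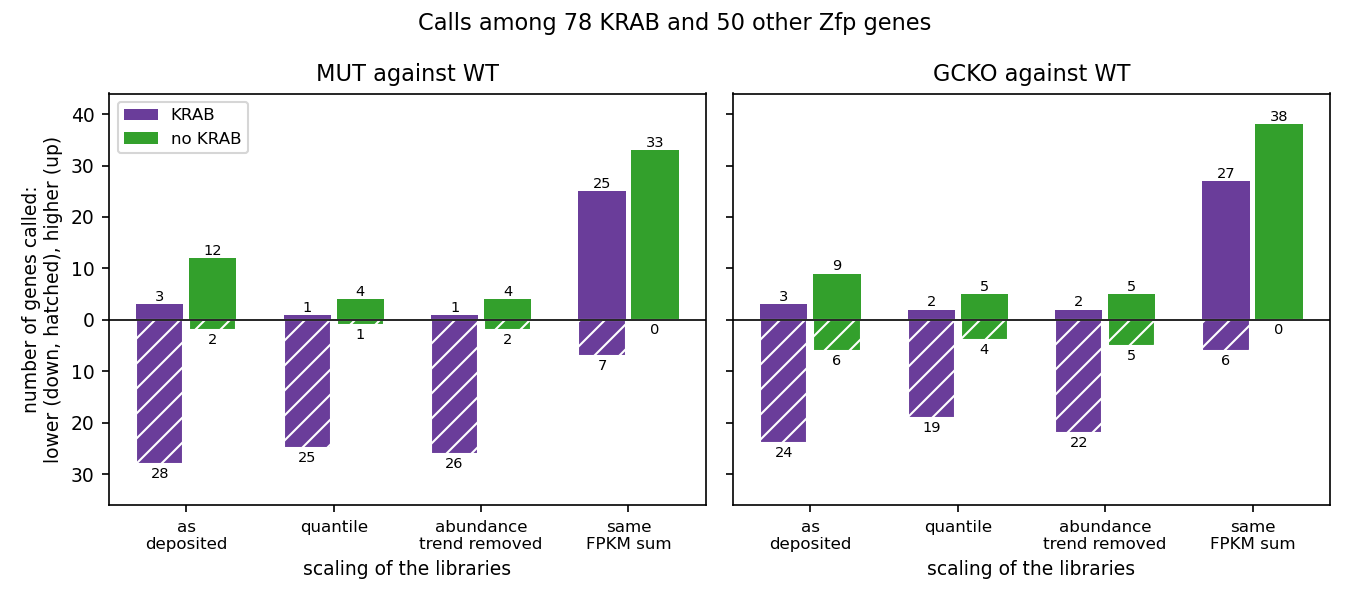
Number of Zfp genes called higher (bars up) and lower (hatched bars down) against WT under 4 scalings of the libraries, purple for the 78 genes with a KRAB box and green for the 50 without. In MUT oocytes the KRAB genes gave 28, 25 and 26 lower under the first 3 scalings and 7 lower with 25 higher at the same FPKM sum.

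The largest falls in MUT oocytes were all of KRAB genes. Zfp534 was measured at 15.1, 7.18 and 19.2 FPKM in WT and at 4.75, 2.03 and 1.23 FPKM in MUT oocytes. The groups did not overlap, and the log2 difference was -2.03 ± 0.38 (SE, n = 3 against 3; limma adjusted p = 0.00222), a 4.09-fold lower value on that scale. Zfp781 lay at 63.1, 56.7 and 56.7 FPKM in WT and at 14, 15.7 and 14.4 FPKM in MUT oocytes, with almost no spread within either group. Its log2 difference was -1.93 ± 0.32 (limma adjusted p = 9.28e-04). Zfp600 showed 18.9, 20.5 and 19.6 FPKM in WT and 5.74, 6.15 and 3.52 FPKM in MUT oocytes, without overlap, and a log2 difference of -1.78 ± 0.27 (limma adjusted p = 5.03e-04). Zfp433 fell from 100.5, 101 and 90.2 FPKM to 29.1, 30.1 and 29.3 FPKM, by 1.69 ± 0.21 on the log2 scale (limma adjusted p = 1.52e-04). Zfp345 fell from 150.2, 125 and 178 FPKM to 53.5, 38.3 and 50.3 FPKM, and Zfp938 from 34.6, 27.1 and 43.9 FPKM to 9.82, 10.2 and 12.4 FPKM, with log2 differences of -1.65 ± 0.26 and -1.60 ± 0.24 (limma adjusted p = 7.23e-04 and 4.91e-04). In these 6 genes every WT library was above every MUT library, which was a condition for naming them as the largest falls.

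The reads of some of these genes cannot be placed with certainty, because near copies exist. Of the 100-nt stretches of its transcripts, Zfp781 shared 92.4% with genes elsewhere, mainly Gm3055, and Zfp433 shared 86.7%, all with Gm32687. Zfp600 shared 68.5%, mainly with Rex2, and Zfp534 shared 40.8%, mainly with Zfp987. Zfp97 and Zfp960, neighbours on chromosome 17, shared 68.0% and 69.2% with each other. In all, 11 genes shared at least 10% of such stretches and 9 of these 11 fell in MUT oocytes. Among the 68 KRAB genes that shared less than 10%, 19 fell (27.9%) and 3 rose. Zfp938, Zfp735, Zfp873 and Zfp933 shared none. Only exact matches of 100 nt in annotated transcripts were sought, so that shorter reads, or reads with mismatches, could still be placed in near copies of these genes.

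Of the 15 genes that rose, 5 (Zfp513, Zfp598, Zfp91, Zfp652 and Zfp334) had a mean under 2 FPKM in WT and met the rule only through the groups in which they were higher, so that their rises are a description and their p-values no independent support. Among the 115 genes with a mean of at least 2 FPKM in WT, 30 fell and 10 rose, 8 of the 10 without a KRAB box. Zfp334 was singled out after its values were seen. Zfp513, known from its role in the retina, was measured at 0.803, 0 and 0.779 FPKM in WT and at 6.30, 7.21 and 3.73 FPKM in MUT oocytes. The groups did not overlap, a condition for naming the largest rises, and the log2 difference was 2.16 ± 0.39 (limma adjusted p = 0.00171). Zfp91, an atypical ubiquitin ligase of the NF-kappaB pathway, was measured at 0.878, 1.66 and 0.285 FPKM in WT and at 5.52, 3.10 and 6.01 FPKM in MUT oocytes, with a log2 difference of 1.62 ± 0.36 (limma adjusted p = 0.00638). Zfp212 was the KRAB gene that rose most, from 3.85, 3.63 and 2.49 FPKM in WT to 10, 12 and 11.6 FPKM in MUT oocytes (log2 difference 1.51 ± 0.27, limma adjusted p = 0.00162). Zfp652, a repressor that works with ETO-family proteins, rose from 1.31, 1.48 and 0 FPKM to 4.21, 5.28 and 2.69 FPKM (log2 difference 1.47 ± 0.45, limma adjusted p = 0.0326). That call was kept in 5 of 12 fits with 1 library left out (highest limma adjusted p = 0.131), and was lost with quantile normalization and with the abundance trend removed. Zfp598, the ubiquitin ligase that marks collided ribosomes, rose from 2.59, 1.75 and 0 FPKM to 4.52, 4.84 and 5.06 FPKM (log2 difference 1.43 ± 0.40, limma adjusted p = 0.0225). Zfp296, a factor of pluripotent and germ cells, was the only abundant gene among these, at 53.3, 33.7 and 34.8 FPKM in WT and 69.8, 99.7 and 106 FPKM in MUT oocytes (log2 difference 1.17 ± 0.34, limma adjusted p = 0.0258). With 1 library left out, the calls of Zfp598 and Zfp296 were kept in 9 and 8 of 12 fits. The count of rises was less steady than that of falls. Without MUT replicate 1, 2 or 3 it was 6, 5 or 7, while leaving out any library kept the falls between 24 and 33. For the genes without a KRAB box, 12 rises became 7 without WT replicate 5 or 6.

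GCKO oocytes were compared with the same WT libraries, so that the MUT and GCKO comparisons are not independent. Of the 128 genes 30 fell and 12 rose in the values as deposited, and 6 fell and 65 rose at the same FPKM sum, against 11.4% lower and 8.71% higher of all genes tested and 18.5% lower and 11.8% higher of genes with a mean of at least 2 FPKM. Among the KRAB genes 24 fell and 3 rose, and among the others 6 fell and 9 rose. Of these 9 rises, 5 were of genes with a WT mean under 2 FPKM, kept through other groups. The median log2 difference was -0.39 for KRAB genes, 0.30 for the others and 0.12 for all genes tested. At 50 FPKM or more 12 of 13 KRAB genes fell, against 820 of 1362 genes of any kind. Quantile normalization gave 23 lower and 7 higher, and the median of KRAB genes stayed 0.52 to 0.68 log2 units under that of the others in the 5 scalings. Here too, scalings by a single factor per library can hardly change this gap, which was not computed without the 13 genes under 2 FPKM in WT. The KRAB median lay 0.52 under the others after quantile normalization and 0.54 under them with the abundance trend removed. Without GCKO replicate 1, which had the lowest FPKM sum, 17 genes fell (15 of them KRAB genes) and 3 rose. Without GCKO replicate 2, 5 rose, and with only the GCKO and WT libraries in the fit 14 fell and 6 rose.

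**Figure D4:**
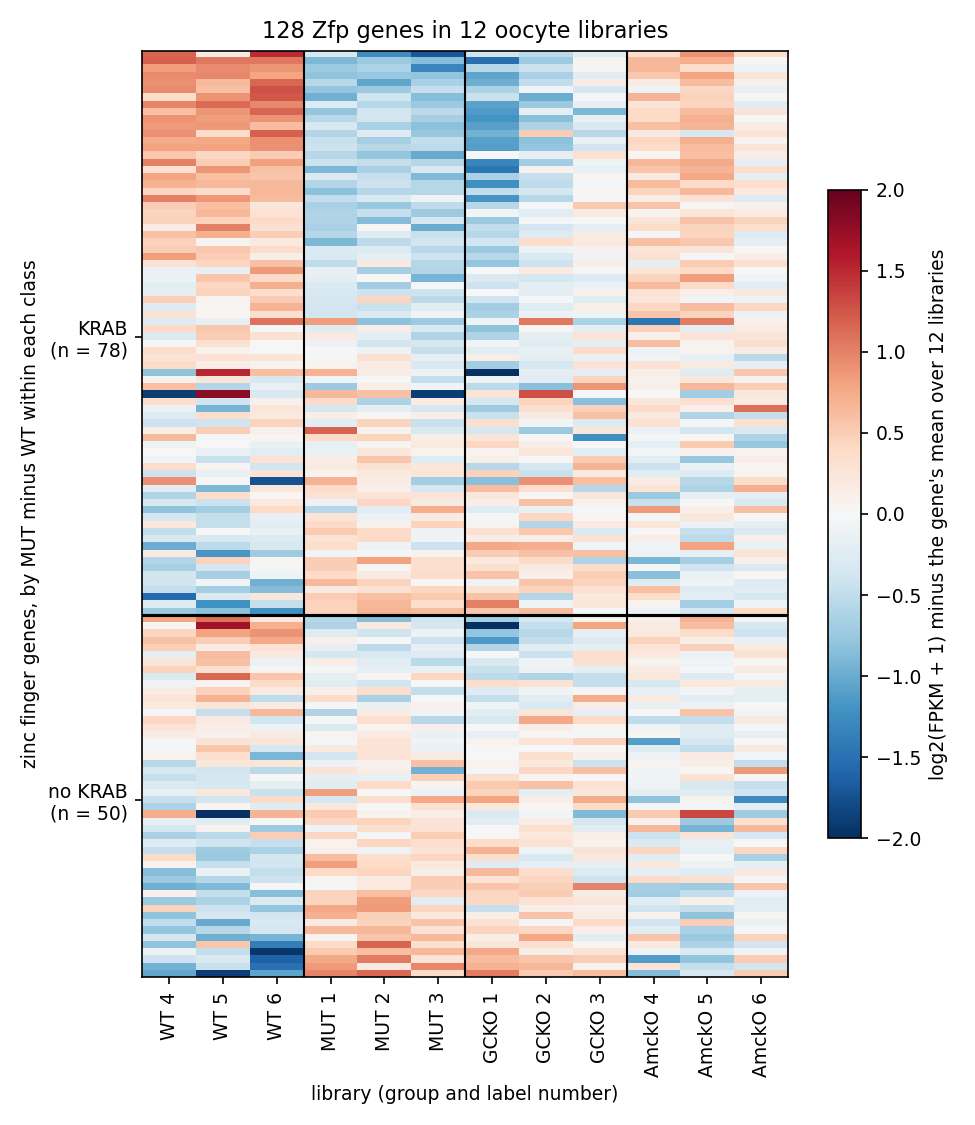
Heat map of log2(FPKM + 1) minus the mean of each gene over the 12 libraries, with the 78 KRAB genes above and the 50 others below the black line, sorted within each class by the MUT minus WT difference, and colours saturating at 2 log2 units. The MUT and GCKO columns are mostly blue for the uppermost KRAB genes, such as Zfp781 at 8.82 to 28.4 FPKM in GCKO against 56.7 to 63.1 FPKM in WT oocytes.

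The 6 largest falls in GCKO oocytes were again of KRAB genes. Zfp781 lay at 8.82, 15.8 and 28.4 FPKM, all under the WT range given above, with a log2 difference of -1.82 ± 0.32 (limma adjusted p = 0.00134). Zfp735 was measured at 147, 164 and 147 FPKM in WT and at 35.2, 44.4 and 66.4 FPKM in GCKO oocytes (log2 difference -1.68 ± 0.23, limma adjusted p = 3.03e-04). Zfp933 was measured at 8.26, 10.2 and 12.6 FPKM in WT and at 1.78, 4.37 and 2.26 FPKM in GCKO oocytes (log2 difference -1.62 ± 0.29, limma adjusted p = 0.0017). In all 3 genes the GCKO values lay under the WT values, which was a condition for naming each of these 6 falls. The GCKO values of the 3 genes spread more widely than those in MUT oocytes. Zfp932, known to silence endogenous retroviruses, stood at 224, 214 and 225 FPKM in WT and at 52.2, 67.2 and 108 FPKM in GCKO oocytes (log2 difference -1.60 ± 0.24, limma adjusted p = 4.68e-04). Zfp97 stood at 137, 137 and 148 FPKM in WT and at 35.8, 45.2 and 60.1 FPKM in GCKO oocytes (log2 difference -1.59 ± 0.18, limma adjusted p = 1.26e-04). Zfp433 stood at 24.2, 32.5 and 44.3 FPKM in GCKO oocytes (log2 difference -1.54 ± 0.21, limma adjusted p = 2.60e-04). In GCKO replicate 3 each of these genes but Zfp933 had its highest value of the group.

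Zfp513 also rose in GCKO oocytes, to 6.60, 4.29 and 4.63 FPKM, with a log2 difference of 2.05 ± 0.39 (limma adjusted p = 0.00238). Zfp91 rose to 4.80, 4.71 and 2.80 FPKM (1.43 ± 0.36, limma adjusted p = 0.013) and Zfp212 to 10.8, 11.6 and 6.97 FPKM (1.31 ± 0.27, limma adjusted p = 0.00404). Zfp652 at 3.75, 3.51 and 3.34 FPKM and Zfp598 at 5.52, 3.17 and 3.63 FPKM passed the threshold narrowly, with limma adjusted p = 0.0491 and 0.0466. Zfp532 was measured at 0.599, 0.677 and 2.04 FPKM in WT and at 3.56, 3.32 and 5.15 FPKM in GCKO oocytes (log2 difference 1.30 ± 0.39, limma adjusted p = 0.0302). Of the genes that rose in GCKO oocytes, Zfp513, Zfp598, Zfp91, Zfp652 and Zfp532 had a WT mean under 2 FPKM, and the same limit of the choice applies to them. Among the 115 genes with a WT mean of at least 2 FPKM, 30 fell and 7 rose. With 1 library left out, the calls of Zfp652 and Zfp598 were each kept in 1 of 12 fits, and that of Zfp532 in 7. All of the rises named here started from a few FPKM or less, where the pseudocount understates the change and 1 fragment weighs most in WT.

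In AmckO oocytes, from females with Cre driven in granulosa cells, none of the 128 genes was called changed by limma, and 17 had an unadjusted p under 0.05. Of all genes tested, 0.116% were called lower and 0.0979% higher. The log2 differences ran from -0.88 to 1.09, with a median of -0.10 for KRAB genes, 0.01 for the others and 0.03 for all genes tested. All 3 AmckO values lay under WT for 17 of the 78 KRAB genes, among them Zfp735, Zfp938 and Zfp433, against 8.61% of all genes tested and 12.8% of genes with a mean of at least 2 FPKM. Zfp938 was measured at 16.5, 23.6 and 15.6 FPKM in AmckO oocytes, under its WT values and above its MUT values, with a log2 difference of -0.88 ± 0.24 (limma adjusted p = 0.134). Zfp735 was measured at 89.8, 101 and 64.5 FPKM (-0.86 ± 0.23, limma adjusted p = 0.134).

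MUT and GCKO oocytes, compared directly, also gave no call among the 128 genes, with 5 at an unadjusted p under 0.05 and 0.134% of all genes called lower and 0.0712% higher. The largest differences were -1.06 for Zfp825 and 0.84 for Zfp946. Zfp946, a KRAB gene, was measured at 6.52, 5.52 and 4.56 FPKM in MUT and at 10.2, 9.05 and 12.8 FPKM in GCKO oocytes, without overlap, and was named after its values were seen (limma adjusted p = 0.251).

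GCKO and AmckO oocytes carry the same floxed allele with a different Cre, and this comparison shares no library with MUT against WT. Of the 128 genes 9 were lower and 1 was higher in GCKO oocytes, against 4.79% lower, 0.668% higher and 5.46% in either direction of all genes tested, and 7.87% and 0.943% of genes with a mean of at least 2 FPKM. The 9 lower genes, 7.03% of the members, were thus near the share of genes of that level, and all 9 encoded a KRAB box (11.5% of the 78). Of the 117 members that share under 10% of their 100-nt stretches with other genes, 4 were lower (3.42%). At 50 FPKM or more 7 of 13 KRAB genes were lower, against 427 of 1362 genes of any kind. From 10 FPKM upward it was 8 of 38 against 513 of 3421, and from 2 to under 10 FPKM 1 of 40 against 21 of 3365. Of 14 Zscan genes tested, another zinc finger family, 3 were lower as well. The 9 genes were Zfp781, Zfp933, Zfp97, Zfp433, Zfp873, Zfp951, Zfp932, Zfp958 and Zfp960, and all 9 had also been called lower in MUT against WT, which is 100% of this list and 30% of the 30 there. All 30 genes that fell in MUT oocytes had a log2 difference under 0 between GCKO and AmckO oocytes, with a median of -0.71, and 22 of them an unadjusted p under 0.05. Among all 1269 genes called lower in MUT oocytes 94.4% were under 0 in this comparison, with a median of -0.62, so that the 30 genes were near the rest of the table. Of the 15 genes that rose in MUT oocytes, 13 were above 0 in this comparison and none was called, against 86.3% above 0 among all genes called higher in MUT oocytes. With only these 6 libraries in the fit, limma called no gene at all (29 members had an unadjusted p under 0.05), and at the same FPKM sum 1 member was lower and 34 were higher. Without GCKO replicate 1 or 2 the count of lower genes was 4 each, and without AmckO replicate 4 or 5 it was 2 each.

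Zfp97 gave the clearest difference of this kind. It stood at 35.8, 45.2 and 60.1 FPKM in GCKO and at 101, 121 and 93.0 FPKM in AmckO oocytes, without overlap, with a log2 difference of -1.16 ± 0.18 (limma adjusted p = 0.00283), and it was the only member called lower under all 5 scalings. Zfp433 was measured at 75.5, 89.7 and 61.0 FPKM in AmckO oocytes (-1.16 ± 0.21, limma adjusted p = 0.00564). Zfp873 was measured at 33.2, 46.5 and 57.7 FPKM in GCKO and at 109, 115 and 79.3 FPKM in AmckO oocytes (-1.14 ± 0.22, limma adjusted p = 0.00799). Zfp933 lay at 7.02, 8.51 and 6.28 FPKM in AmckO oocytes, again above every GCKO value (-1.17 ± 0.29, limma adjusted p = 0.0331). For Zfp781, at 42.8, 45.3 and 26.6 FPKM in AmckO oocytes, and Zfp951, at 36.6, 56.3 and 86.5 FPKM in GCKO and 146, 156 and 80.3 FPKM in AmckO oocytes, the highest GCKO library lay above the lowest AmckO library, and the calls were narrow (limma adjusted p = 0.0467 and 0.0433).

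**Figure D5:**
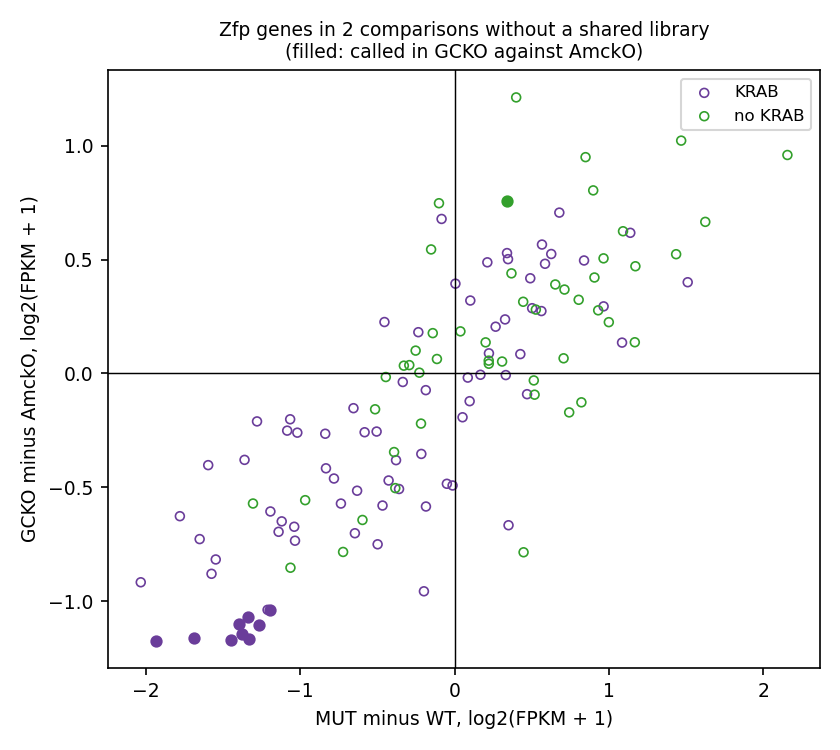
Log2 difference GCKO minus AmckO (y axis) against MUT minus WT (x axis) for the 128 Zfp genes, 2 comparisons without a library in common, purple with and green without a KRAB box, filled where called between GCKO and AmckO. The 9 filled purple points lie at the lower left, and the 30 genes that fell in MUT oocytes all lie under 0 on the y axis, as did 94.4% of all genes called lower in MUT oocytes.

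The genes were spread over 20 chromosomes, with 26 on chromosome 7 and 21 on chromosome 17, and 64 of them lay within 500 kb of another member, in 19 clusters that held 52 KRAB genes and 12 others. None lay within 5 Mb of Dpagt1 on chromosome 9, where 5 members are found and none was called. The cluster on chromosome 10, from 81704825 to 82241280 in GRCm38, held Zfp433, Zfp781, Zfp873 and Zfp938, and all 4 fell in MUT and in GCKO oocytes, with a median log2 difference of -1.64 and -1.49. On chromosome 4, Zfp534 and Zfp933, between 147673502 and 147848366, both fell in both groups, as did Zfp97 and Zfp960 on chromosome 17. The largest cluster, of 11 KRAB genes from Zfp160 to Zfp946 on chromosome 17 (21008903 to 22456689), had 3 genes lower in MUT and none in GCKO oocytes. Of the 26 genes of chromosome 7, 1 fell and 6 rose in MUT oocytes, and their median log2 difference was 0.30, although 16 of them encoded a KRAB box. No test of position was made.

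Among the members with a KRAB box and known targets, Zfp932 and Zfp708 fell in MUT oocytes and the others did not pass the threshold. Zfp568, listed with them by role but just outside the rule, rose from low WT values of 0.226, 1.28 and 0.220 FPKM. Its log2 difference from WT was 1.06 ± 0.34 in MUT and 1.49 ± 0.34 in GCKO, without overlap (limma adjusted p = 0.0408 and 0.00716). Zfp708, which binds a retrotransposon family, was measured at 38.8, 37.2 and 46.1 FPKM in WT, 15.8, 19 and 18.9 FPKM in MUT, 20.1, 22.2 and 29.5 FPKM in GCKO and 39.3, 45.5 and 32.9 FPKM in AmckO oocytes. Both mutant groups lay under WT and AmckO, and the log2 difference from WT was -1.14 ± 0.20 in MUT and -0.75 ± 0.20 in GCKO (limma adjusted p = 0.00126 and 0.0147). In GCKO the sign turned at the same FPKM sum. Zfp932 stood at 81.8, 93.2 and 75.6 FPKM in MUT oocytes, against at least 214 FPKM in every WT library (log2 difference -1.40 ± 0.24, limma adjusted p = 0.00112). Zfp445, which shares the upkeep of imprints with Zfp57, had low values of 1.32, 0.897 and 1.80 FPKM in WT and 2.92, 2.35 and 2.85 FPKM in MUT oocytes, without overlap but not called (0.68 ± 0.31, limma adjusted p = 0.145). Zfp809, which silences retroviruses by their primer binding site, varied within each group as much as between them, from 0.548 to 3.87 FPKM in MUT and from 1.27 to 4.80 FPKM in WT oocytes.

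Among the other abundant members, Zfp958 and Zfp58, both KRAB genes, fell in MUT and GCKO oocytes. Zfp958 was measured at 366, 371 and 413 FPKM in WT, 159.8, 137 and 157 FPKM in MUT and 102, 122 and 199 FPKM in GCKO oocytes, with log2 differences of -1.34 ± 0.22 and -1.49 ± 0.22 (limma adjusted p = 0.00106 and 5.20e-04). Zfp58 was measured at 250.0, 274 and 234 FPKM in WT, 112, 139 and 123 FPKM in MUT and 112, 139.9 and 189 FPKM in GCKO oocytes, and its GCKO difference of -0.81 ± 0.21 (limma adjusted p = 0.0138) turned sign at the same FPKM sum. Zfp277, a C2H2 gene without a KRAB box that is known to act with Polycomb proteins, also fell, from 159, 206 and 219.6 FPKM in WT to 98.1, 88.7 and 109 FPKM in MUT and 68.3, 80.1 and 103 FPKM in GCKO oocytes. Its log2 difference was -0.97 ± 0.22 in MUT (limma adjusted p = 0.00649), and turned sign there at the same FPKM sum.

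Members with other roles changed less uniformly. Zfp281, a repressor of the pluripotency network, was, with Zfp277, the only gene without a KRAB box called lower in MUT oocytes, at 14.1, 17.7 and 9.12 FPKM in WT and 4.89, 3.85 and 5.63 FPKM in MUT oocytes (-1.31 ± 0.30, limma adjusted p = 0.00761). Zfp143, an activator that binds many promoters, rose from 2.27, 1.28 and 2.76 FPKM to 4.18, 5.31 and 5.85 FPKM in MUT oocytes (1.00 ± 0.31, limma adjusted p = 0.0351), a call kept in 7 of 12 fits with 1 library left out and lost with quantile normalization and with the abundance trend removed. Zfp148, which binds GC-rich promoters, was not called, with a log2 difference of 0.44 ± 0.26. Zfp207, which loads the checkpoint protein BUB3 at kinetochores and acts at the spindle, ranged from 43.3 to 56.4 FPKM in WT and from 38.3 to 50.2 FPKM in MUT oocytes, with overlapping groups and a log2 difference of -0.14 ± 0.17 (limma adjusted p = 0.587). Zfp830, a splicing-associated protein, and Zfp593, which acts in ribosome assembly, were not called either, at log2 differences of -0.29 ± 0.21 and -0.22 ± 0.32. Zfp36, Zfp42, Zfp217, Zfp326, Zfp335, Zfp346, Zfp516, Zfp568, Zfp622 and Zfp703 had a mean under 2 FPKM and are no members.

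The partners through which KRAB proteins silence chromatin moved in both directions. Of 24 genes listed, 23 were tested, of which 2 fell and 6 rose in MUT oocytes, and 5 fell and 3 rose in GCKO oocytes. Of all genes tested 11.3% fell and 9.46% rose in MUT oocytes, and 11.4% fell and 8.71% rose in GCKO oocytes, and at a mean of at least 2 FPKM these shares were 18.2% and 12.5%, and 18.5% and 11.8%. Trim28, which encodes the co-repressor that KRAB domains bind, was measured at 1.05, 1.78 and 1.02 FPKM in WT and at 1.67, 0.946 and 3.24 FPKM in AmckO oocytes, but at 6.27, 8.24 and 7.28 FPKM in MUT and 10.1, 11.9 and 7.36 FPKM in GCKO oocytes. Every MUT and GCKO library lay above every WT and AmckO library, a split that also follows the label numbers. Trim28 was low in WT, where 1 fragment weighs most. Its log2 difference from WT was 1.87 ± 0.32 in MUT and 2.23 ± 0.32 in GCKO (limma adjusted p = 0.00126 and 3.87e-04), positive under all 5 scalings, and between GCKO and AmckO it was 1.92 ± 0.32 (limma adjusted p = 0.00392). Setdb1, which methylates histone H3 at lysine 9, rose in MUT oocytes from 8.24, 6.08 and 7.66 FPKM to 11.5, 12.5 and 14.2 FPKM (limma adjusted p = 0.0468). This call was lost with quantile normalization (0.60, limma adjusted p = 0.122) and with the abundance trend removed, and in GCKO oocytes Setdb1 was not called (0.51, limma adjusted p = 0.153). Sumo2 and Mphosph8, a modifier of TRIM28 and a reader of the silent mark, fell in MUT by 0.84 and 0.90 on the log2 scale (limma adjusted p = 0.00748 and 0.00209), and both turned sign at the same FPKM sum, Sumo2 also with quantile normalization and with the abundance trend removed. Dnmt1, the maintenance DNA methyltransferase, was at 67.3 to 74.3 FPKM in WT and 69.5 to 85.9 FPKM in MUT oocytes, without a call as deposited (0.15, limma adjusted p = 0.536). It was called higher with quantile normalization (0.59, limma adjusted p = 0.0387) and at the same FPKM sum.

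Other zinc finger families were counted in the same fit. The shares of all genes tested given above are not matched to their levels, since rare genes were seldom called lower. Among all 2027 genes with a mean of 2 to 5 FPKM, 40 were lower and 245 higher in MUT oocytes, and 47 and 241 in GCKO oocytes. The shares of all genes under 2 FPKM were not counted. Of 205 Zfp genes under 2 FPKM, 87 were tested, of which 6 rose and none fell in MUT oocytes (14 with an unadjusted p under 0.05), and 4 rose and none fell in GCKO oocytes (11 with an unadjusted p under 0.05). Zscan genes, which pair fingers with a SCAN domain, gave 2 lower and 2 higher of 14 tested in MUT and 4 lower and 1 higher in GCKO oocytes. Zkscan genes gave 0 lower and 1 higher of 8, Zbtb genes 0 lower and 2 higher of 28, and Zc3h genes, whose fingers are of the CCCH type and bind RNA, 1 lower and 0 higher of 12 in MUT oocytes.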

How the data were processed

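RNA was amplified with Smart-seq2, which copies polyadenylated transcripts, from 12 oocyte libraries. Per the labels and the study's methods, the authors mapped reads to mm10 with TopHat2 2.0.13 and obtained FPKM values with Cufflinks 2.2.1 and Cuffnorm. The deposited table holds 1 FPKM value for each gene and library. Its columns of pairwise comparisons, with fold changes and significance values that the authors obtained with Cuffdiff, were not used. Fragment counts are not given, so depth is known only as relative steps between low values. How multiply mapped reads were assigned, and whether counting used strand, is not given in the sources used here.

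A pseudocount of 1 was added before taking log2, which understates changes of low genes. For the 11233 genes that reached 1 FPKM somewhere, a linear model with a term for each group was fitted jointly to the 12 libraries (limma 3.58.1, R version 4.3.3, variance trend, 8 residual degrees of freedom). Of its 5 contrasts, p-values were adjusted over all genes tested after Benjamini and Hochberg, and those under 0.05 were called. All 128 members passed the filter. The members and lists were chosen with earlier results of these data known. Positions, transcripts and coding sequences were taken from GENCODE M21 (GRCm38). By symbol 127 members matched, and 1 (Zfp191) by its newer name. KRAB and SCAN domains were found with pyhmmer 0.12.3, from profiles built on 43 and 12 sequences that match fixed patterns, at an E-value under 0.001. Fingers were counted as 2 cysteines and 2 histidines at fixed spacing (12 residues between the pairs). On simulated data with 200 of 11233 genes changed in MUT against WT, the code recovered 142, with 93.0% of 4-fold and 49.0% of 2-fold changes, and called 8 unchanged genes. The changes were placed only in genes with a mean log2(FPKM + 1) above 2, with independent noise and no trend with abundance. These rates therefore need not hold for the members, least of all the rare ones.

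Genes are named by a rule: the 6 with the highest mean, the 6 largest rises and falls called against WT without overlap, the 6 largest changes called between GCKO and AmckO, those of known role, and the 3 next to the threshold. Any other gene was named for its position, its class or its values. No pairing of the libraries by replicate number was seen. Alternatives were another pseudocount (0.1), other filters, scalings and thresholds, fewer groups in the fit, the replicate number as a block, and each library left out.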

Additional observations from a re-analysis of the deposited data

Results flagged for a closer look

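GCKO and AmckO differ in the cell type in which Cre is driven, and the difference between their effects against WT is the GCKO minus AmckO difference itself. For 10 zinc finger genes limma called this difference, out of 128 (7.81%), against 5.46% of all genes tested. Among genes with a mean of at least 2 FPKM the share was 8.81%, so the 10 were no more than usual at that level. The difference was -1.17 for Zfp781, -1.17 for Zfp933, -1.16 for Zfp97, -1.16 for Zfp433, -1.14 for Zfp873, -1.11 for Zfp951, -1.10 for Zfp932, -1.07 for Zfp958 and -1.04 for Zfp960 on the log2(FPKM + 1) scale. The limma adjusted p of these 9 ran from 0.00283 (Zfp97) to 0.0467 (Zfp781). Zfp750, a regulator of epidermal differentiation without a KRAB box, was the only gene higher in GCKO oocytes, by 0.76 (limma adjusted p = 0.0454), at 26.3, 27.4 and 22.2 FPKM in GCKO and 16.8, 14.2 and 12.8 FPKM in AmckO oocytes. With only the GCKO and AmckO libraries in the fit, none of the 10 was called.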

How the results depend on the processing

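Replicate numbers are shared by AmckO and WT and by GCKO and MUT. Correlations of same-numbered libraries were between -0.07 and 0.10, and those of differently numbered libraries between -0.12 and 0.12. No pairing by number was seen, although so few libraries cannot exclude it. With the replicate number as a block, limma called 0 members lower and 0 higher in both comparisons, as without it (16 and 6 members at an unadjusted p under 0.05).

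The same FPKM sum moved most results. Against WT it gave 7 lower and 58 higher members in MUT (7 KRAB genes lower, 33 others higher) and 6 lower and 65 higher in GCKO (6 and 38), 1 lower and 34 higher between GCKO and AmckO, and medians of the members of 0.73 (MUT), 0.76 (GCKO), 0.21 (AmckO) and 0.59 (GCKO minus AmckO), against -0.11, -0.10, -0.05 and -0.03 as deposited. It also turned Zfp277 in MUT (0.023), and Zfp655 (0.51), Zfp58 (0.22) and Zfp708 (0.25) in GCKO. Zfp655 turned as well with quantile normalization (0.34) and with the abundance trend removed (0.29), an alternative chosen after seeing the data. Quantile normalization gave 5 higher in MUT (4 without KRAB), 7 higher in GCKO (5), and 4 lower and 0 higher between GCKO and AmckO. Removal of the abundance trend gave 5 higher in MUT (4 without KRAB), 7 in GCKO (5), 4 lower and 0 higher between GCKO and AmckO, and a median of -0.25 in MUT.

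With only the 2 groups compared, GCKO against WT gave 14 lower (12 KRAB) and 6 higher (3 without KRAB), and GCKO against AmckO 0 and 0. At an adjusted p under 0.01, 4 rose in MUT (3 without KRAB), 16 fell (14 KRAB) and 2 rose (1) in GCKO, and 3 fell and 0 rose between GCKO and AmckO. A fold change over 2 left 8 higher in MUT (6 without KRAB), 5 higher without KRAB in GCKO, and 0 higher between GCKO and AmckO. Testing genes with a mean of at least 5 FPKM gave 9 higher in MUT (7 without KRAB), and 15 lower and 2 higher between GCKO and AmckO. Members with a mean of at least 5 FPKM gave 8 higher in MUT and 6 in GCKO. No filter left 5 higher without KRAB in GCKO. Without its variance trend limma called 3 lower and 0 higher between GCKO and AmckO, and members that share under 10% of their sequence stretches gave 4 lower there.

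With 1 library left out, MUT gave 24 to 33 lower (22 to 28 KRAB) and 5 to 18 higher (3 to 14 without KRAB), GCKO 17 to 30 lower (15 to 24 KRAB) and 3 to 13 higher (1 to 8 without KRAB), and GCKO against AmckO 2 to 12 lower and 0 to 1 higher. The 9 rises without KRAB in GCKO became 1 without GCKO replicate 1, 3 without GCKO replicate 2 and 5 without WT replicate 5, and the 1 rise between GCKO and AmckO was lost without any of 8 libraries. Medians of the members ran from -0.17 to -0.03 in MUT, -0.12 to -0.04 in GCKO, -0.12 to -0.05 in AmckO and -0.11 to -0.02 between GCKO and AmckO. AmckO against WT and GCKO against MUT gave 0 calls in each alternative. Of 56 calls of named genes, 1050 of 1278 alternative values kept the call, 222 lost it in the same direction and 6 turned sign.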
